A study of Mus musculus with 24 samples.

Results

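The question here was in which genes the liver and a subcutaneous fat depot of mice changed alike on a long Western diet and in which they did not. The 12 libraries labelled wild type (WT), of 24 in the series, were used: 3 livers and 3 inguinal white adipose tissues (iWAT, the fat pad of the groin) from mice on Western diet (WD), and 3 of each tissue from mice on chow. Of 54532 genes in the authors' table, 12493 reached a mean FPKM of 0.5 in both tissues, taken over the 6 WT libraries of each, and were tested. For each gene the diet effect in a tissue is the mean log2(FPKM + 1) on WD minus that on chow, and the difference is the effect in liver minus the effect in iWAT. A positive difference therefore means that WD raised a gene more, or lowered it less, in liver than in iWAT. A gene is said to be called, to have risen or to have fallen where limma gave an adjusted p (Benjamini-Hochberg over the 12493 genes) under 0.05.

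Liver and white fat handle the same fatty acids in different ways. Liver makes cholesterol, packs lipid into lipoproteins and burns fatty acids, and it shuts down its cholesterol synthesis genes, the targets of the transcription factor SREBP2, when sterol from food is plentiful. White fat takes up fatty acids through lipoprotein lipase, makes some of its own from glucose and stores them as triglyceride, and in mice a depot that expands switches on the imprinted gene Mest. In both tissues obesity is known to bring macrophages and to lay down extracellular matrix.

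The mice were 13 weeks old when feeding began and were fed for 52 weeks, and the labels call the 3 libraries of a group biological replicates. RNA came from 50 mg of powdered whole liver and from 100 mg of powdered whole iWAT freed of lymph nodes. The labels give no strain, sex, transgene or Cre for the WT mice. The other 12 libraries, from mice with a knockout (KO) of the mitochondrial magnesium channel Mrs2, enter only 1 alternative fit and the check of the labels.

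Mrs2 spanned 3.90 to 5.21 FPKM in the KO-labelled livers and 1.60 to 2.25 FPKM in the KO-labelled iWAT. It was measured at 5.10, 4.10 and 5.11 FPKM in WD livers labelled WT and at 6.26, 5.87 and 6.50 FPKM in chow livers labelled WT. In iWAT labelled WT it was measured at 5.01, 2.74 and 4.72 FPKM on WD and at 4.48, 4.67 and 3.87 FPKM on chow. The KO label thus separated from WT in iWAT, while in liver the WD libraries labelled WT overlapped those labelled KO. "WT liver" below means the livers so labelled. The diet effects on Mrs2 differed by -0.25 log2 between liver and iWAT (adjusted p = 0.578, limma), and 32.4% of its exon bases lie opposite Gpld1, which reached 80.2 FPKM in liver, so that reads of both genes mix where counting ignored strand.

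Depth was even, with 14983623 to 16955729 reads recovered per library. Hepatocyte markers averaged 9.75 to 10.75 log2(FPKM + 1) in the 6 livers against 0.79 to 1.51 in the 6 iWAT libraries, and adipocyte markers averaged 1.32 to 1.96 in liver against 8.30 to 8.99 in iWAT, so each library matched its tissue label. Albumin in iWAT stood at 0.0704% of its liver level on WD and at 0.0529% on chow. Of the 12 libraries, 4 stood apart by markers of another tissue: WD liver replicate 2 held pancreas acinar markers at 6.74 (0.21 to 0.46 in the 11 others), chow liver replicate 3 held skeletal muscle markers at 3.37 (0.05 to 0.41 in the other 5 livers), WD iWAT replicate 1 held skeletal muscle markers at 7.08, and chow iWAT replicate 3 held lymphocyte markers at 4.59. Skeletal muscle markers averaged 7.08, 3.83 and 3.10 in WD iWAT and 1.23, 3.15 and 0.88 in chow iWAT. Lymphocyte markers averaged 2.08, 1.06 and 1.001 in WD iWAT and 2.65, 2.09 and 4.59 in chow iWAT. Red cell markers averaged 6.96, 6.15 and 5.43 in WD iWAT and 5.12, 4.54 and 4.50 in chow iWAT. In whole tissue, fewer cells of a type and less RNA per cell cannot be told apart.

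Cell type markers also moved with diet in liver, with no overlap between the diets in any of the following lists. Hepatocyte markers averaged 9.80, 9.99 and 9.75 log2(FPKM + 1) in WD liver and 10.75, 10.65 and 10.69 in chow liver. Bile duct markers averaged 2.361, 2.296 and 2.307 in WD liver and 1.48, 1.52 and 1.21 in chow liver, with Spp1, which macrophages make too, the most abundant of them. Endothelial markers averaged 3.30, 2.97 and 3.01 in WD liver and 2.67, 2.54 and 2.44 in chow liver. Every fall of a liver gene and every rise of a macrophage or matrix gene in WD liver below stands beside these shifts, whose part in it was not tested.

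**Figure D1:**
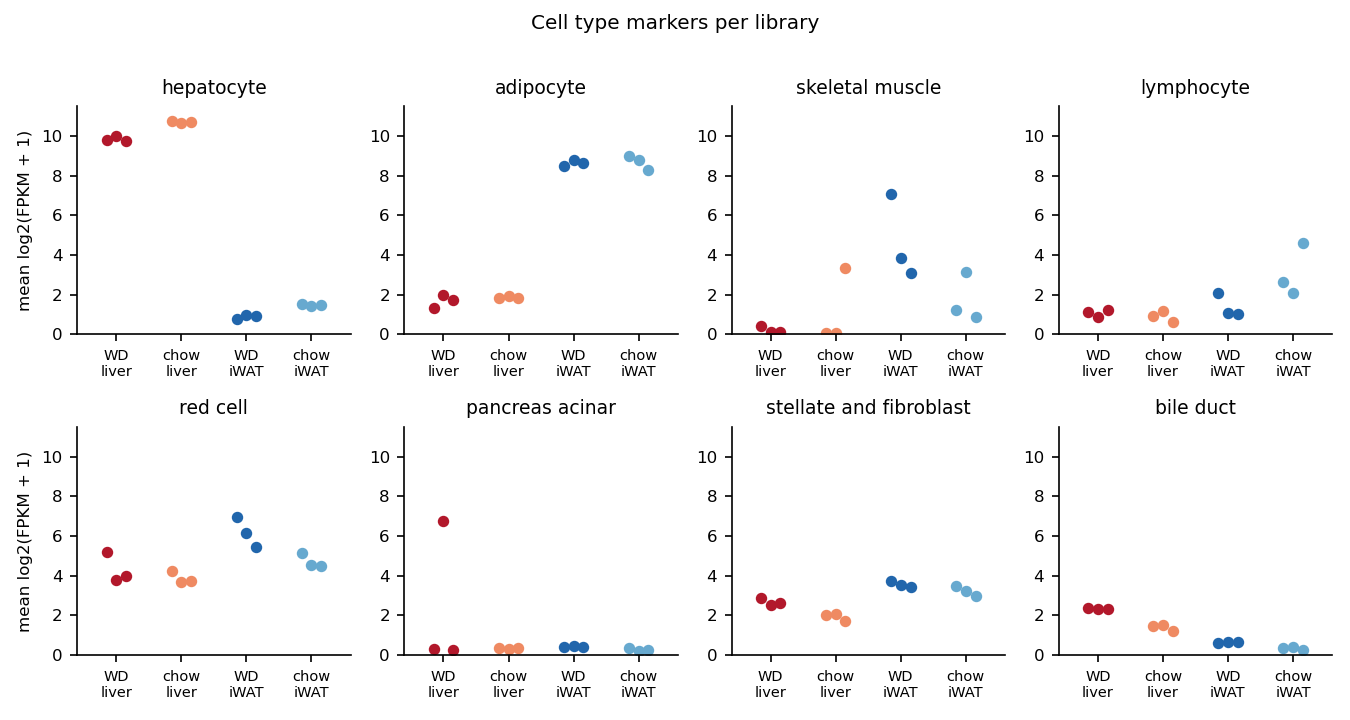
Mean log2(FPKM + 1) of cell type markers (y axis) in each of the 12 WT libraries, 1 point per library and no error bars, by tissue and diet (x axis). Hepatocyte and adipocyte markers separate the tissues; the acinar markers of 1 WD liver (6.74), the muscle markers of 1 WD iWAT library (7.08) and the lymphocyte markers of 1 chow iWAT library (4.59) stand apart.

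Many more genes passed the test in liver than in fat. WD against chow called 1764 genes in liver (14.1% of those tested), 954 higher (7.64%) and 810 lower (6.48%). In iWAT it called 276 genes (2.21%), 190 higher (1.52%) and 86 lower (0.688%). The diet effect differed between the tissues for 259 genes (2.07%), with 115 differences above 0 (0.921%) and 144 below 0 (1.15%). A count of calls depends on the spread in a tissue as well as on the effect; the median absolute log2 effect over all tested genes was 0.230 in liver and 0.172 in iWAT, and the median effect was -0.04 in liver and 0.01 in iWAT.

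Few genes passed in both tissues. The 72 genes called in both made up 4.08% of the liver calls and 26.1% of the iWAT calls, and 65 of them moved in the same direction (0.52% of the genes tested) while 7 moved in opposite directions (0.056%). Over all genes, 57.0% had the same sign in liver and iWAT, against 69.0% of the genes called in liver and 65.9% of those called in iWAT. Across the 12493 genes the effects in liver and in iWAT correlated weakly, with a Pearson r of 0.214 and a Spearman coefficient of 0.223; genes of 1 library share its depth and composition and are not independent.

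Most of the 259 called differences joined a liver response to an iWAT effect that was not called. In 173 the diet effect was called in liver but not in iWAT, in 63 it was called in iWAT but not in liver, in 7 in both and in 16 in neither. The signs were opposite in 198 of the 259, in 87 with liver higher and iWAT lower and in 111 the other way round. In 91 of the 198 the libraries of the diets overlapped in neither tissue. Over all tested genes, the diets did not overlap for 34.8% of genes in liver and 27.1% in iWAT. These shares hold for each tissue taken singly and not for both at once, and genes with a called difference were chosen in a way that favours separation. The genes with a difference above 0 had a median log2(FPKM + 1) of 2.51 in WD liver, 1.25 in chow liver, 2.46 in WD iWAT and 2.96 in chow iWAT. Those with a difference below 0 had medians of 3.26, 4.37, 2.94 and 2.29 in the same order. In both sets, which the difference itself had chosen, the median levels of the tissues thus lay closer together on WD than on chow. Single genes could go the other way, as Ly6d and Mest did.

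The deposited FPKM carry a scaling factor per library beyond its number of reads. Scaled to total reads instead, the median effect in liver moved to 0.22 and the median difference to 0.27, and 524 differences were called, 466 above 0 and 58 below 0, with 2599 liver genes higher and 162 lower and 200 iWAT genes higher and 149 lower. By edgeR, with its own scaling, 206 differences lay above 0 and 138 below, and by DESeq2 752 above and 611 below. Each of the 259 differences kept its sign when scaled to total reads, and 171 stayed called. Without the 4 libraries that stood apart, 19 differences were called, 17 of them among the 259. All 259 kept their sign there, but they had been chosen for large differences in these same data. The 4 libraries include a library of each group, so every group was smaller there than the 3 of the main fit. Calls lost to lower power and calls lost to the RNA left out cannot be told apart.

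**Figure D2:**
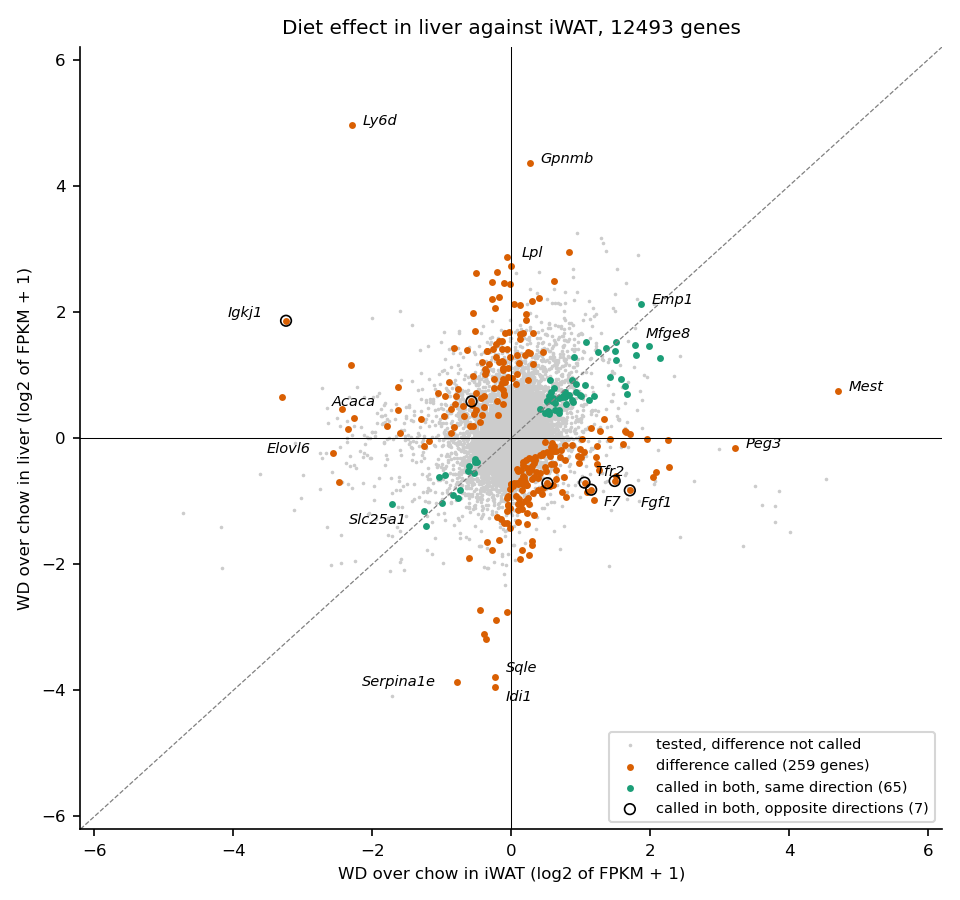
Diet effect in liver (y axis) against iWAT (x axis), WD over chow, in log2 of FPKM + 1, 1 point per tested gene (12493), with no error bars. The 259 genes whose difference was called lie off the dashed line of equal effects, many of them along the axes, and the 65 genes called in both tissues in the same direction lie near it.

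Of the 7 genes that passed in both tissues with opposite signs, Fgf1, Marc1, Tfr2, F7 and Tstd3 fell in liver and rose in iWAT, while Pepd and Igkj1 passed with liver higher and iWAT lower, Igkj1 on very few reads. Fgf1 (ENSMUSG00000036585) encodes acidic fibroblast growth factor, a secreted growth factor which in mouse fat is induced by high-fat feeding. It had 17.4, 14.2 and 14.6 FPKM in WD liver and 18.7, 37.3 and 31.4 FPKM in chow liver. In iWAT it had 10.8, 11.4 and 13.3 FPKM on WD and 2.52, 3.84 and 2.53 FPKM on chow. All WD livers lay below all chow livers and all WD iWAT libraries above all chow ones, and the tissues, far apart on chow, stood close together on WD. The effect was -0.83 in liver (adjusted p = 0.0356) and 1.71 in iWAT (adjusted p = 0.00535), a difference of -2.54 ± 0.32 (SE; limma, adjusted p = 0.00613).

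Tfr2 (ENSMUSG00000029716, chr5:137569840-137587481 on mm10), the transferrin receptor by which hepatocytes sense iron, had 84.2, 104 and 107 FPKM in WD liver and 179, 144 and 159 FPKM in chow liver. The iWAT libraries had 6.65, 6.43 and 4.45 FPKM on WD and 2.98, 2.10 and 1.80 FPKM on chow. F7 (ENSMUSG00000031443, chr8:13026034-13035809), coagulation factor VII, which hepatocytes secrete, had 51.4, 42.7 and 46.9 FPKM in WD liver and 87.7, 68.3 and 96.9 FPKM in chow liver, and in iWAT 0.729, 2.20 and 2.79 FPKM on WD and 0.214, 0.262 and 0.250 FPKM on chow. For both genes the diets did not overlap in either tissue, but F7 reached the filter in iWAT through the WD group alone. The level in iWAT on WD was 5.94% of that in liver for Tfr2, 4.05% for F7 and 0.0704% for albumin. The difference was -1.76 ± 0.25 for Tfr2 (adjusted p = 0.0114) and -1.97 ± 0.35 for F7 (adjusted p = 0.0260, limma). The hepatocyte markers, which were lower in WD liver too, averaged 0.79, 0.99 and 0.93 in WD iWAT and 1.51, 1.44 and 1.45 in chow iWAT. Cyp2e1, the most abundant of them in iWAT, had 13.3, 70.3 and 32.8 FPKM on WD and 1006, 853 and 742 on chow. Tfr2 and F7 were higher in WD iWAT, and the part of liver RNA in their iWAT values was not tested.

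Marc1 (ENSMUSG00000026621, chr1:184786767-184811313), a molybdenum enzyme of the outer mitochondrial membrane, had 113 to 149 FPKM in WD liver, 186 to 234 in chow liver, 16.3 to 17.6 in WD iWAT and 4.29 to 6.22 in chow iWAT. Its difference, -2.17 ± 0.21 (adjusted p = 0.00257), had the smallest p of the 7. Tstd3, which carries a sulfurtransferase domain, had a difference of -1.24 (adjusted p = 0.00780); 17.4% of its exon bases lie opposite Ccnc. Pepd (ENSMUSG00000063931, chr7:34912379-35044708), the dipeptidase prolidase that releases proline from collagen fragments, had 21.9, 23.6 and 24.1 FPKM in WD liver and 16.2, 13.9 and 15.5 FPKM in chow liver. Its levels in iWAT were 15.6, 20.6 and 17.3 FPKM on WD and 27.9, 28.8 and 24.1 FPKM on chow. The order was thus mirrored, WD above chow in every liver and below chow in every fat pad, with a difference of 1.15 ± 0.16 (limma, adjusted p = 0.0121). Igkj1, a joining segment of the immunoglobulin kappa chain, is only 38 bases long. Its 1.64 to 3.26 FPKM in the WD livers stand for 1, 2 and 2 reads, against 0 reads in each chow liver, so that it reached the filter in liver through the WD group alone. In iWAT it had 5, 0 and 2 reads on WD and 21, 30 and 20 reads on chow (0 to 5.76 and 20.4 to 34.9 FPKM). Its liver call therefore rests on 5 reads in all.

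Left out in turn, no library ended the difference of Fgf1, Marc1, Tfr2, Pepd or Tstd3, while that of F7 ended in 5 of 12 fits (adjusted p up to 0.0723) and that of Igkj1 without WD liver replicate 3 (adjusted p = 0.0506). The single effects, which place a gene among the 7, are less firm. The liver effect ended in 10 of 12 such fits for Igkj1, 9 of 12 for F7, 6 of 12 for Fgf1, 4 of 12 for Tfr2 and 3 of 12 for Marc1, and in none for Pepd and Tstd3. The iWAT effect ended in 11 of 12 for Tstd3, 10 of 12 for F7, 6 of 12 for Pepd, 3 of 12 for Tfr2 and 2 of 12 for Igkj1, and in none for Fgf1 and Marc1.

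Beyond these, the opposed genes were picked by the size of the smaller of their effects, among those whose diets overlapped in neither tissue. On the side with liver higher and iWAT lower stood Ly6d, Igkj1, Gpx8, Cpxm1 and Igkv1-88. Ly6d (ENSMUSG00000034634, chr15:74762056-74763620), a surface protein anchored by a lipid tail and known from B cell progenitors and epithelia, had 112, 105 and 103 FPKM in WD liver and 1.86, 7.63 and 0.654 FPKM in chow liver. In iWAT it had 5.88, 1.48 and 1.42 FPKM on WD and 14.3, 8.44 and 32.8 FPKM on chow. The WD livers were close to each other and far above any chow liver, while in fat the chow libraries were the higher ones, most so replicate 3, which also held the most lymphocyte markers; their part in the iWAT values was not tested. Ly6d had the largest difference of all named genes, 7.26 ± 0.90 (limma, adjusted p = 0.00613), and its iWAT effect of -2.29 was not called (adjusted p = 0.0953). Igkv1-88, a variable segment of the kappa chain, also rested on few reads in liver, 7, 4 and 7 on WD and 1, 0 and 1 on chow. It too reached the filter in liver through the WD group. Gpx8, a peroxidase of the endoplasmic reticulum, and Cpxm1, a secreted protein of the carboxypeptidase family, had differences of 1.79 and 2.25 (adjusted p = 0.0365 and 0.0136). Cpxm1 had 4.43, 3.59 and 5.29 FPKM in WD liver, 0.804, 1.99 and 0.5001 in chow liver, 7.21, 8.86 and 8.25 in WD iWAT and 18.5, 13.3 and 14.02 in chow iWAT.

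On the side with liver lower and iWAT higher stood Jph1, Fgf1, F7, Gamt and Got1. Gamt (chr10:80258151-80261012), which completes creatine synthesis, had 94.8, 86.6 and 85.2 FPKM in WD liver and 181, 134 and 204 FPKM in chow liver. The iWAT libraries had 19.4, 16.96 and 11.97 FPKM on WD and 10.9, 10.2 and 5.98 FPKM on chow. Got1, the cytosolic aspartate aminotransferase, had 81.6, 49.01 and 39.5 FPKM in WD liver, 102, 96.6 and 96.5 in chow liver, 7.30, 5.14 and 4.84 in WD iWAT and 2.40, 2.96 and 3.87 in chow iWAT. Both are liver genes whose liver effect was called and whose iWAT effect was not (0.78 and 0.73 log2), with differences of -1.72 ± 0.33 and -1.58 ± 0.34 (adjusted p = 0.0353 and 0.0469, limma). Jph1, a junctophilin of skeletal muscle, had 0.162, 0.0991 and 0.210 FPKM in WD liver, 1.13, 0.828 and 2.11 in chow liver, 7.97, 2.67 and 2.84 in WD iWAT and 1.27, 1.26 and 1.08 in chow iWAT. It was highest within each tissue in WD iWAT replicate 1 and chow liver replicate 3, the libraries that carried muscle markers. In liver it reached the filter of 0.5 FPKM through the chow group alone. Neither of its effects was called, its difference was -2.18 (adjusted p = 0.0385), and the part of muscle RNA in it was not tested. The differences of Gpx8, Gamt, Got1, Jph1 and Igkv1-88 ended in 7 to 11 of the 12 fits without 1 library, whereas those of Ly6d and Cpxm1 ended in none, and without the 4 libraries that stood apart only Ly6d and F7 of these 10 stayed called (adjusted p = 0.0386). Signs of both effects held for each of these genes, and for the 7 above, under the 3 other scalings.

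Of the 31 gene lists examined, cholesterol synthesis had the largest median difference between liver and fat and the most called differences. The list holds the enzymes of the pathway and sterol-controlled genes such as Insig1, Stard4 and Srebf2. Of 23 tested members 19 fell in WD liver and none rose, while in iWAT none was called by limma (3 at an unadjusted p under 0.05, 0 by edgeR and 2 by DESeq2). The difference was called for 10 of the 23, each below 0, and lay below 0 in all 23. Over all tested genes 6.48% fell in liver and 1.15% had a difference called below 0. The median effect of the list was -1.97 in liver and -0.22 in iWAT, with a median difference of -1.73. Over all genes tested these medians were -0.04, 0.01 and -0.04. Without the 4 libraries that stood apart 14 stayed called in liver and 1, Sqle, in the difference, with a median difference of -2.09.

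Along the pathway, Idi1 (ENSMUSG00000058258, chr13:8885501-8892451), which isomerises isopentenyl diphosphate, had 2.91, 3.59 and 0.935 FPKM in WD liver and 104, 37.1 and 30.6 FPKM in chow liver, with 2.57 to 4.62 FPKM in WD iWAT and 3.14 to 4.47 FPKM in chow iWAT. It was high in chow liver alone; the WD livers lay within or below the range of fat, where the diets overlapped. The difference was -3.71 ± 0.63 (limma, adjusted p = 0.0222).

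Sqle, the squalene epoxidase at the entry of the sterol branch, had 1.63, 1.25 and 1.07 FPKM in WD liver, 53.6, 32.9 and 16.2 in chow liver, 1.55, 2.87 and 1.75 in WD iWAT and 3.61, 2.66 and 1.61 in chow iWAT. Of the enzymes that trim lanosterol, Cyp51 had 6.10, 9.18 and 4.96 FPKM in WD liver, 128, 41.5 and 49.6 in chow liver, 3.32, 5.10 and 3.57 in WD iWAT and 6.64, 6.35 and 3.80 in chow iWAT. Msmo1 had 6.11, 7.27 and 3.16 FPKM in WD liver, 83.6, 45.6 and 45.6 in chow liver, 2.40, 3.97 and 2.92 in WD iWAT and 3.72, 4.92 and 4.08 in chow iWAT. In each of the 3, chow liver stood far above the other groups and the diets overlapped in fat. Tm7sf2, a sterol reductase, had 4.61, 4.97 and 3.06 FPKM in WD liver and 35.8, 27.7 and 36.4 FPKM in chow liver, and in iWAT, at 0.475 to 0.879 FPKM on WD and 1.14 to 1.49 FPKM on chow, the diets did not overlap either, with the same sign and an effect of -0.45 that was not called. The differences were -3.55 (Sqle), -2.72 (Cyp51), -2.82 (Msmo1) and -2.27 (Tm7sf2), with adjusted p of 0.0136, 0.0385, 0.0136 and 0.00258 by limma; 12.1% of the exon bases of Tm7sf2 are shared with Vps51. Differences were also called for Mvk (-1.93), Nsdhl (-2.65), Hsd17b7 (-2.11) and Ebp (-1.07). Hmgcs1 stood apart in iWAT with an effect of 1.40 that was not called, 43.9, 71.4 and 53.6 FPKM on WD and 28.7, 22.1 and 13.01 FPKM on chow. No single library ended the difference of Sqle, Msmo1 or Tm7sf2, while that of Idi1 ended in 4 of 12 fits (adjusted p up to 0.0618) and that of Cyp51 in 9 of 12 (up to 0.102).

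**Figure D3:**
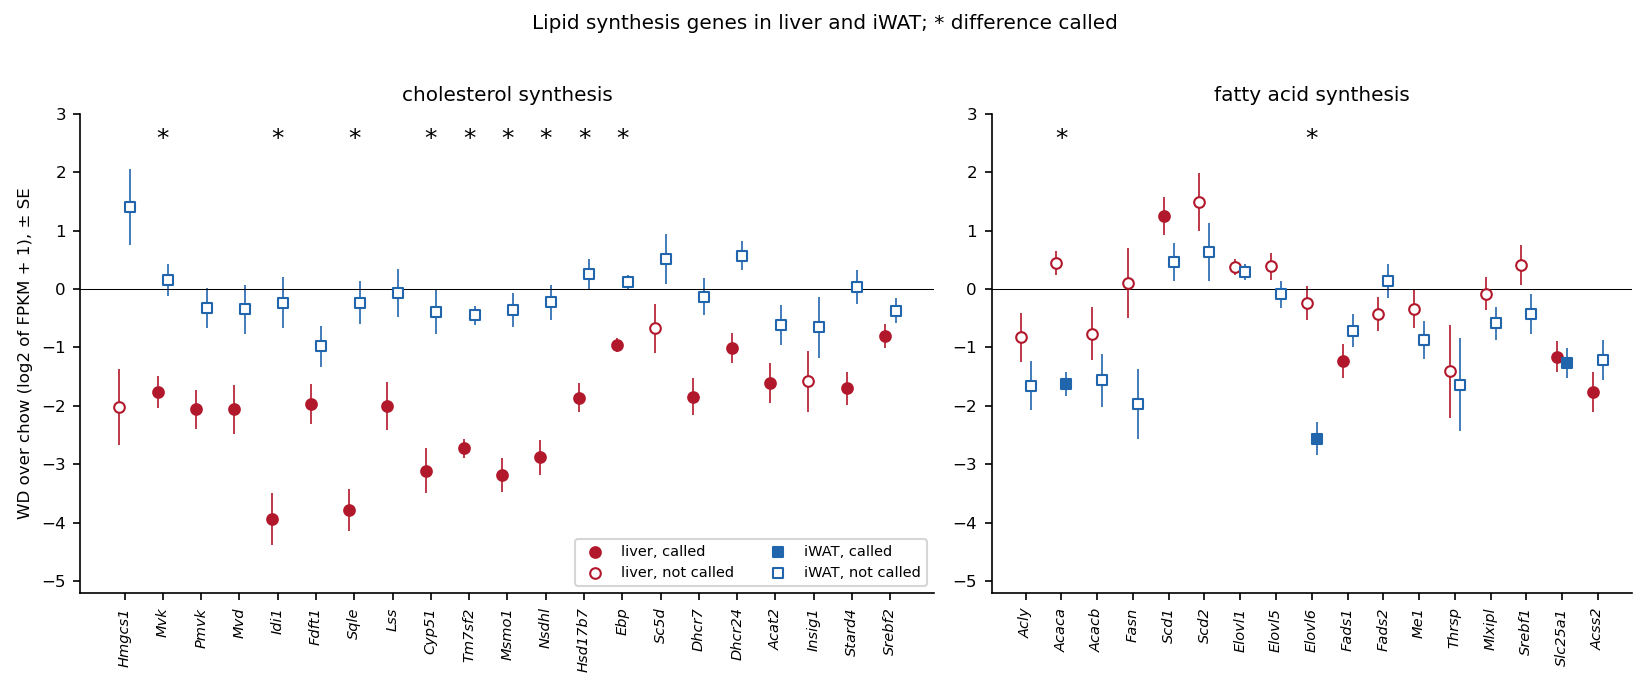
Diet effect (y axis, WD over chow, log2 of FPKM + 1, bars ± SE from limma, n = 3 per group) of 21 tested members of cholesterol synthesis (left) and fatty acid synthesis (right, x axis: genes), circles for liver and squares for iWAT, filled where called. Liver lies far below iWAT for cholesterol synthesis, with asterisks where the difference was called, and above iWAT for Acaca and Elovl6.

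Promoters of 4 of these genes are shown because the genes fell together in liver with no call in fat, and SREBP2 is known to act on short promoters beside the factor NF-Y, which binds CCAAT. The 250 bases before the RefSeq start (GRCm38.p6) are given 5′ to 3′ on the gene's strand, with each CCAAT, on either strand, in capitals (ATTGG where it lies on the other strand). Idi1 is at chr13:8885356-8885605 on the plus strand, Msmo1 at chr8:64733579-64733828, Cyp51 at chr5:4104698-4104947 and Tm7sf2 at chr19:6067851-6068100, these 3 on the minus strand.
Idi1: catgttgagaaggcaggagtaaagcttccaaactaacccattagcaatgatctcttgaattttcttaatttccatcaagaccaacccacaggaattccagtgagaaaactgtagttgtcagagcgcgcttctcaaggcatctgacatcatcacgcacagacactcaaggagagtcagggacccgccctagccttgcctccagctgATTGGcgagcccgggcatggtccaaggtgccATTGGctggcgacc
Msmo1: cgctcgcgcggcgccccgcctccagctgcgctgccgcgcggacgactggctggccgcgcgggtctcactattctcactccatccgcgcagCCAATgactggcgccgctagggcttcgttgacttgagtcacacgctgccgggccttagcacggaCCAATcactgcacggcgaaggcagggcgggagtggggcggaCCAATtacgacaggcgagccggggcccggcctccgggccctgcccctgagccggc
Cyp51: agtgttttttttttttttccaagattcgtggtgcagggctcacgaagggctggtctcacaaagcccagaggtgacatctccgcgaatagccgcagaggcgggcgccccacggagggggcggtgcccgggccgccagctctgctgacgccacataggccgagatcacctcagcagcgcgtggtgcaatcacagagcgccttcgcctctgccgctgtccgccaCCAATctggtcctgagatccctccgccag
Tm7sf2: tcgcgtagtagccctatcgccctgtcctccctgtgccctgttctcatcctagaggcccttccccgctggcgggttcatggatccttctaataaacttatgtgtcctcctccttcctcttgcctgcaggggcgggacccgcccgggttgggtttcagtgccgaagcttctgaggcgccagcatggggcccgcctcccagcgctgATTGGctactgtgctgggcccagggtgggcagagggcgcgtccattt
Of the 10 genes with a called difference 8 had a window in the table, 1 each, and 8 of 8 held a CCAAT. Of the 19 genes that fell in liver 14 had windows, 17 in all, and 13 of the 17 windows, each of another gene, held one. Over the genome 33.8% of 32851 promoter windows, or 37.5% of 27025 genes counted by any window, held one. The sterol regulatory element in the form TCACNCCAC was found in none of the 8 (1.05% of all windows) and the E-box CACGTG in 1, that of Hsd17b7 (6.02% of all windows), each motif being searched on both strands and counted on its own. A match is a run of letters and not a bound site, and the CCAAT count was made with the liver result known.

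Fatty acid synthesis had its called differences on the other side, above 0. Of 17 tested members 3 fell in iWAT (Acaca, Elovl6 and Slc25a1), and in liver 3 fell and Scd1 rose; the difference was called for Acaca and Elovl6, both above 0; without the 4 libraries that stood apart neither was. Over all tested genes 0.688% fell in iWAT, 6.48% fell and 7.64% rose in liver, and 2.07% had a called difference. The median effect of the list was -0.24 in liver and -0.87 in iWAT, and the median difference 0.53. The liver median turned to 0.09 when scaled to total reads. Elovl6 (ENSMUSG00000041220, chr3:129532355-129638495), which elongates palmitate to stearate, had 26.5, 41.1 and 16.6 FPKM in WD liver and 28.1, 32.6 and 33.1 FPKM in chow liver. In iWAT it had 2.82, 3.99 and 2.10 FPKM on WD and 19.97, 19.2 and 27.7 FPKM on chow. The livers overlapped, whereas the WD fat pads lay well below every chow one. Acaca (ENSMUSG00000020532, chr11:84129672-84401651), the acetyl-CoA carboxylase that commits carbon to fatty acids, had 14.7, 20.2 and 12.2 FPKM in WD liver, 14.01, 9.34 and 10.2 in chow liver, 15.1, 16.7 and 11.4 in WD iWAT and 48.5, 49.7 and 40.4 in chow iWAT. On chow the fat exceeded the liver in Acaca, and on WD they were level.

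The difference was 2.32 ± 0.40 for Elovl6 (adjusted p = 0.0260) and 2.07 ± 0.29 for Acaca (adjusted p = 0.0115, limma); that of Acaca was ended by no single library and that of Elovl6 by 5 of 12 (adjusted p up to 0.0649). Fasn, the fatty acid synthase, had a difference as large as that of Acaca, 2.06, which was not called (adjusted p = 0.204), with 179, 267 and 79.2 FPKM in WD iWAT and 683, 666 and 502 FPKM in chow iWAT. Scd1, the desaturase of stearate, rose in liver (1.25 log2, adjusted p = 0.0314) beside 0.46 in iWAT. The CCAAT was not particular to the sterol genes: of 14 fatty acid synthesis genes with a window 10 held one (11 of 19 windows), Fasn and Slc25a1 among them. The window of Elovl6, at chr3:129532136-129532385 on the plus strand, held none of the 3 motifs and is shown because its difference was the largest called in this list.
Elovl6: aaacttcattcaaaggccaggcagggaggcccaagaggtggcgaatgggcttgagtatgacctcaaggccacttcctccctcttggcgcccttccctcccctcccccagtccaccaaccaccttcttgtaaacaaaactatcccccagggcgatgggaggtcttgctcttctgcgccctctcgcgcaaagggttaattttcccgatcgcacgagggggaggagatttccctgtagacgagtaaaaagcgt

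Lpl and Cd36, uptake genes that are abundant in fat, rose in liver. Lpl (ENSMUSG00000015568, chr8:68880491-68907448), lipoprotein lipase, had 49.04, 26.6 and 38.2 FPKM in WD liver and 6.21, 4.27 and 3.86 FPKM in chow liver. The iWAT libraries had 512, 687 and 645 FPKM on WD and 664, 658 and 523 FPKM on chow. Cd36, a fatty acid transporter, had 87.1, 83.8 and 85.4 FPKM in WD liver, 24.02, 19.2 and 11.7 in chow liver, 719, 855 and 999 in WD iWAT and 742, 738 and 484 in chow iWAT. Liver stayed far below fat in both genes, but only in liver did the diets not overlap, and the differences were 2.73 ± 0.33 and 1.81 ± 0.36 (adjusted p = 0.00603 and 0.0368, limma). These were the 2 called differences among 14 tested uptake genes, of which 3 rose in liver (with Fabp4) and Fabp1 fell. Over all tested genes 7.64% rose and 6.48% fell in liver, 1.52% rose in iWAT and 2.07% had a called difference. Among 10 tested lipid droplet proteins Plin4, Cidec and Hilpda rose in liver and Hilpda rose in iWAT too, and no difference was called (limma; 3 at an unadjusted p under 0.05, 0 by edgeR and 2 by DESeq2). Cpt1a, which admits fatty acids to mitochondria for oxidation, was the only one of 25 oxidation and ketone genes with a called difference, -1.51 ± 0.32 (adjusted p = 0.0441). It rose in fat, with 24.6, 26.8 and 39.4 FPKM in WD iWAT and 12.7, 12.96 and 10.9 FPKM in chow iWAT, while in liver it had 93.6, 118 and 130.1 FPKM on WD and 102, 145 and 179 FPKM on chow. No single library ended the difference of Lpl; those of Cd36 and Cpt1a ended in 9 of 12 and 11 of 12 fits, with adjusted p up to 0.0918 and 0.105.

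Most of the macrophage genes examined rose in liver, where 7.64% of all tested genes rose, against 1.52% in iWAT. Of 18 tested genes of lipid-associated macrophages 13 rose in liver and 1, the protease gene Ctsl, in iWAT; of 20 tested genes of macrophages and monocytes 12 rose in liver and none was called in iWAT by limma (4 at an unadjusted p under 0.05, 0 by edgeR and 1 by DESeq2). The median effect of the first list was 1.91 in liver and 0.72 in iWAT, and of the second 1.68 in liver and 0.47 in iWAT. The difference itself was called for Gpnmb, Lpl, Cd63 and Ctsk of the first list and for Cd14 of the second, all above 0, so for most of these genes unequal effects were not shown. Without the 4 libraries that stood apart 13 genes of the first list and 8 of the second stayed called in liver, and the difference was called for 2 of the first. Trem2, the lipid receptor of such macrophages, had 2.68 in liver and 1.52 in iWAT, with a difference of 1.16 that was not called (adjusted p = 0.269).

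Gpnmb (ENSMUSG00000029816, chr6:49036546-49070929), a membrane glycoprotein of lipid-laden macrophages, had 34.9, 16.1 and 39.4 FPKM in WD liver and 0.225, 0.859 and 0.261 FPKM in chow liver. Its levels in iWAT were 4.92, 15.6 and 21.2 FPKM on WD and 7.03, 7.96 and 16.3 FPKM on chow. Gpnmb reached the filter in liver through the WD group alone. Cd63, a tetraspanin of lysosomes and vesicles, had 24.7, 12.8 and 19.8 FPKM in WD liver, 1.24, 2.79 and 1.23 in chow liver, 37.04, 41.6 and 45.01 in WD iWAT and 51.1, 42.7 and 36.6 in chow iWAT. Chow liver was low in both; WD liver lay within or above the range of fat for Gpnmb and below it for Cd63, and in fat the diets overlapped. The differences were 4.09 ± 0.71 for Gpnmb and 2.93 ± 0.36 for Cd63 (adjusted p = 0.0260 and 0.00613, limma). Reads of Cd63 may be shared with the near-identical Cd63-ps, whose difference was 1.99 (adjusted p = 0.0388). Cd14, the lipopolysaccharide co-receptor, had 24.3, 11.03 and 19.98 FPKM in WD liver, 1.35, 4.29 and 2.06 in chow liver, 9.997 to 15.7 in WD iWAT and 9.995 to 19.5 in chow iWAT (difference 2.57, adjusted p = 0.0418). No single library ended the difference of Cd63; that of Gpnmb ended in 4 of 12 fits and that of Cd14 in 10 of 12.

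Among matrix genes and their proteases, the difference was called for Lum and Mmp2 alone. Of 31 tested matrix genes 18 rose in liver and 4 in iWAT (Col16a1, Thbs1, Thbs2 and Loxl1), where 7.64% and 1.52% of all tested genes rose, so that the larger number in liver is shared with the genes at large, with median effects of 1.06 in liver and 0.79 in iWAT; of 15 proteases and inhibitors 6 rose in liver and 2 in iWAT. Lum (chr10:97565128-97572703), lumican, a proteoglycan that spaces collagen fibrils, had 45.4, 23.9 and 27.4 FPKM in WD liver and 2.63, 6.64 and 4.14 FPKM in chow liver. In iWAT it had 20.2, 18.8 and 18.9 FPKM on WD and 38.99, 23.7 and 23.2 FPKM on chow. WD liver thus lay above chow liver in every library and WD fat below chow fat in every library, although the iWAT effect of -0.51 was not called. Mmp2, a gelatinase, had 8.81, 5.03 and 5.50 FPKM in WD liver, 0.532, 0.978 and 0.746 in chow liver, 28.3, 38.9 and 43.4 in WD iWAT and 56.4, 40.3 and 34.4 in chow iWAT, so only the livers separated. The differences were 3.12 ± 0.43 and 2.29 ± 0.33 (adjusted p = 0.0114 and 0.0136), and neither was ended by leaving out 1 library. Without the 4 libraries that stood apart, 9 matrix genes were called in liver and no difference in that list. Col1a1, the main fibrillar collagen, had an effect of 2.68 in liver and 0.89 in iWAT, a difference of 1.79 that was not called (adjusted p = 0.145). Markers of stellate cells and fibroblasts averaged 2.90, 2.50 and 2.61 log2 in WD liver, 2.001, 2.05 and 1.73 in chow liver, 3.73, 3.51 and 3.45 in WD iWAT and 3.50, 3.25 and 2.96 in chow iWAT, and their part in the matrix result was not tested.

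Several secreted and metabolic genes changed in liver with no called effect in iWAT. Fgf21 (ENSMUSG00000030827, chr7:45613886-45615490), a hormone that liver releases under metabolic stress, had 8.64, 16.1 and 21.8 FPKM in WD liver and 1.89, 1.77 and 1.62 FPKM in chow liver. The iWAT libraries had 0.736, 1.29 and 1.16 FPKM on WD and 0.418, 0.372 and 0.244 FPKM on chow. Fgf21 reached the filter in iWAT through the WD group alone. The diets separated in the same direction in both tissues, by 2.50 in liver and by 0.61 in iWAT, where no library passed 1.29 FPKM and the effect was not called; the difference was 1.89 ± 0.36 (adjusted p = 0.0326) and ended in 9 of 12 fits without 1 library. Of 18 stress genes 2 rose and 6 fell in liver (median -0.18, or 0.08 scaled to total reads), and Shmt2, the mitochondrial serine hydroxymethyltransferase, which fell in liver, had the other called difference (-0.60, adjusted p = 0.0446), which ended in 11 of 12. Of 22 genes of glycolysis or targets of the transcription factor HIF1A, 6 rose and 3 fell in liver and Pgk1 rose in iWAT. Over all tested genes 7.64% rose and 6.48% fell in liver, 1.52% rose in iWAT and 2.07% had a called difference. Pkm and Hk2, glycolytic kinases that hepatocytes hold low, had 17.7 to 27.7 and 3.08 to 3.89 FPKM in WD liver and 5.71 to 8.55 and 0.532 to 1.17 FPKM in chow liver. In iWAT they had 73.2 to 87.7 and 12.7 to 22.5 FPKM on WD and 61.9 to 65.8 and 18.7 to 28.4 FPKM on chow. Both rose in liver (differences 1.37 and 1.51, adjusted p = 0.0312 and 0.0446), the difference of Pkm ended in 8 of 12 fits without 1 library, and that of Hk2 in each of the 12 (adjusted p 0.0574 to 0.103). None of these 4 differences was called without the 4 libraries that stood apart.

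Gpx3, a secreted glutathione peroxidase, had 45.3, 15.9 and 18.9 FPKM in WD liver, 6.74, 4.99 and 4.38 in chow liver, 161, 169 and 160.3 in WD iWAT and 318, 260.4 and 167 in chow iWAT. Sult1e1, the estrogen sulfotransferase, had 11.3, 9.58 and 4.03 FPKM in WD liver and 0.394, 0.988 and 0 in chow liver. In iWAT it had 7.11, 14.2 and 5.90 FPKM on WD and 10.5, 14.6 and 6.17 on chow. Sult1e1 reached the filter in liver through the WD group alone. Serpina1e, 1 of the mouse copies of alpha-1 antitrypsin, had 377, 283 and 718 FPKM in WD liver and 9710.0, 5697 and 4370.4 FPKM in chow liver, with 0.0814 to 0.510 FPKM in WD iWAT and 0.492 to 3.52 FPKM in chow iWAT. Gpx3 and Sult1e1 are thus fat-level genes that rose in liver, and Serpina1e a liver gene that fell there. Their differences were 2.54, 2.83 and -3.09 (adjusted p = 0.0365, 0.0454 and 0.0446, limma) and ended in 7 to 11 of the 12 fits without 1 library. Serpina1e shares reads with near-identical paralogs, so its own level is uncertain, and its fall stands beside the lower hepatocyte markers of WD liver. In iWAT it had 15, 3 and 18 reads on WD and 18, 26 and 147 on chow. It thus reached the filter there largely through chow replicate 3.

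Of 76 tested nuclear genes of oxidative phosphorylation (OXPHOS) 25 fell in WD liver, where 6.48% of all tested genes fell. Hepatocyte markers were lower there too, and the number depended on the scaling. The other 51 were not called in liver, although all 76 effects lay below 0, and none was called in iWAT by limma (2 at an unadjusted p under 0.05, 0 by edgeR and by DESeq2), with medians of -0.43 in liver and -0.09 in iWAT. Only Atp5o, of the stalk of ATP synthase, and Ndufs3, of complex I, had a called difference. These 2 of 76 are near the share of all tested genes, 2.07%. Atp5o had 26.9, 25.7 and 26.9 FPKM in WD liver, 40.3, 40.5 and 40.9 in chow liver, 39.04, 37.8 and 31.2 in WD iWAT and 31.8, 33.3 and 30.3 in chow iWAT. Ndufs3 had 27.1, 30.7 and 29.6 FPKM in WD liver, 46.6, 51.8 and 52.3 in chow liver, 36.7, 34.5 and 27.5 in WD iWAT and 32.00, 35.3 and 29.5 in chow iWAT. Only the livers separated in either gene, and the differences ended in 6 of 12 and 10 of 12 fits without 1 library. When the 4 libraries that stood apart were left out, 2 of the 76 were called in liver and no difference. Under quantile normalization 6 of the 76 were called in liver. Scaled to total reads, 2 stayed called in liver, no difference was called, and the median difference was 0.02 in place of -0.38. The 13 mitochondrially encoded genes had a median of -0.49 in liver and -0.49 in iWAT, with no call in either tissue or in the difference (limma; 5, 4 and 0 at an unadjusted p under 0.05, 2, 3 and 0 by DESeq2 and 0 by edgeR).

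The imprinted genes Mest and Peg3 rose in iWAT, and their effects differed from those in liver. Mest (ENSMUSG00000051855, chr6:30723547-30748465), a putative hydrolase of the endoplasmic reticulum, had 3.06, 1.32 and 1.41 FPKM in WD liver and 0.888, 0.661 and 0.555 FPKM in chow liver. Its levels in iWAT were 132, 116 and 120.3 FPKM on WD and 1.36, 13.7 and 2.05 FPKM on chow. Peg3 (ENSMUSG00000002265, chr7:6703892-6730431), a zinc finger protein, had 0.476, 0.516 and 0.422 FPKM in WD liver, 0.783, 0.535 and 0.603 in chow liver, 21.9, 25.04 and 41.4 in WD iWAT and 1.86, 3.86 and 1.26 in chow iWAT. All WD fat pads were far above all chow ones, while in liver both genes stayed at or below 3.06 FPKM. Peg3 reached the filter in liver through the chow group alone. The difference was -3.97 ± 0.77 for Mest (adjusted p = 0.0365) and -3.37 ± 0.39 for Peg3 (adjusted p = 0.00532, limma). No single library ended the call of Peg3, while that of Mest ended in 9 of 12 fits (adjusted p 0.000525 to 0.0905 over the 12), with chow iWAT replicate 2, at 13.7 FPKM, apart from its group. Of the exon bases of Mest 23.1% lie opposite Copg2, whose difference was also called (-1.03, adjusted p = 0.0181). Mest and Peg3 were the 2 called differences among 10 tested genes of fat expansion and imprinting, against 2.07% of all tested genes.

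Arhgef37, which belongs to a family of guanine nucleotide exchange factors, had 1.54, 2.74 and 1.85 FPKM in WD liver, 4.18, 2.85 and 2.48 in chow liver, 6.47, 5.62 and 10.2 in WD iWAT and 0.874, 0.793 and 0.455 in chow iWAT. Its difference of -2.73 ± 0.32 (limma, adjusted p = 0.00569) was ended by no single library. Hspb7, a small heat shock protein of heart and muscle, had 0.0224 to 0.180 FPKM in WD liver, 0.0589, 0.138 and 2.90 in chow liver, 3.52, 4.19 and 6.26 in WD iWAT and 0.335, 0.559 and 0.182 in chow iWAT. Alas2, which catalyses the first step of heme synthesis in red cell precursors, had 27.1, 34.3 and 33.7 FPKM in WD liver, 49.4, 39.3 and 50.1 in chow liver, 59.1, 34.7 and 21.7 in WD iWAT and 11.4, 5.92 and 6.49 in chow iWAT, and 12.9% of its exon bases lie opposite Apex2. Hspb7 was high in chow liver replicate 3, which held muscle markers, and it reached the filter in liver through that library alone. In WD iWAT it was not highest in replicate 1, the library richest in muscle markers. In iWAT Alas2 was highest in the library highest in red cell markers, replicate 1 on WD, and the other 4 tested red cell markers had iWAT effects of 1.53 to 1.96 that were not called. The differences were -2.65 for Hspb7 and -2.61 for Alas2 (adjusted p = 0.04998, just under the threshold, and 0.0260) and ended in 9 of 12 and 5 of 12 such fits; the part of muscle or blood RNA in them was not tested.

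A set taken after values were seen held the 124 tested genes that the authors' table types as immunoglobulin segments. Of these 19 fell in iWAT and none rose, with 119 effects below 0 and a median of -1.65 (0.688% of all tested genes fell). The filter took the mean over both diets, so a segment high on chow alone could pass in iWAT, as Igkv6-32 did. Segments of a library share its cells and are not independent, so these counts are a description. In liver Igkj1 alone was called and the median was 0.00. Igkv6-17 had 1.15 to 2.48 FPKM in WD liver and 0.215 to 1.63 FPKM in chow liver, with 2.55, 0.233 and 0.122 FPKM in WD iWAT and 11.4, 30.5 and 10.9 FPKM in chow iWAT. The chow fat pads were far above the rest. The differences were 3.95 for Igkv6-17, 2.58 for Igkv6-32 and 2.44 for Igkv1-88 (adjusted p = 0.0294, 0.0136 and 0.0326, limma). That of Igkv6-32 was ended by no single library, but none of the 3 was called without the 4 libraries that stood apart. Igkv6-32 rested on few reads, 5, 5 and 3 in WD liver and 4, 2 and 0 in chow liver. In iWAT it had 4, 1 and 0 reads on WD and 28, 57 and 41 on chow. Igkv6-17 had 15, 7 and 15 reads in WD liver, 5, 8 and 1 in chow liver and 22, 2 and 1 in WD iWAT. All 7 tested lymphocyte markers had an iWAT effect below 0 (-2.36 to -1.20) and none was called by limma (7 at an unadjusted p under 0.05, 7 by DESeq2, 0 by edgeR). By the labels' protocols lymph nodes were removed from this depot, and whether removal was complete in each pad was not tested. Kappa segments resemble each other closely, and the part of lymphocyte RNA in these results was not tested. Genes of MHC and antigen presentation leaned the same way, with a median of 0.34 in liver and -0.82 in iWAT and 15 of 16 differences above 0, but no difference was called by limma (6 at an unadjusted p under 0.05, 0 by edgeR and 2 by DESeq2). Of 22 interferon-stimulated genes 21 had a difference above 0, with a median of 0.66, and only that of Ifit2, an inhibitor of translation, was called (1.16, adjusted p = 0.0454). That call ended in 10 of 12 fits without 1 library (adjusted p up to 0.119) and without the 4 libraries that stood apart. Ifit2 had 4.79, 4.05 and 4.77 FPKM in WD liver, 1.31, 2.42 and 1.12 in chow liver, 3.63, 3.10 and 3.52 in WD iWAT and 4.20, 3.79 and 2.80 in chow iWAT.

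**Figure D4:**
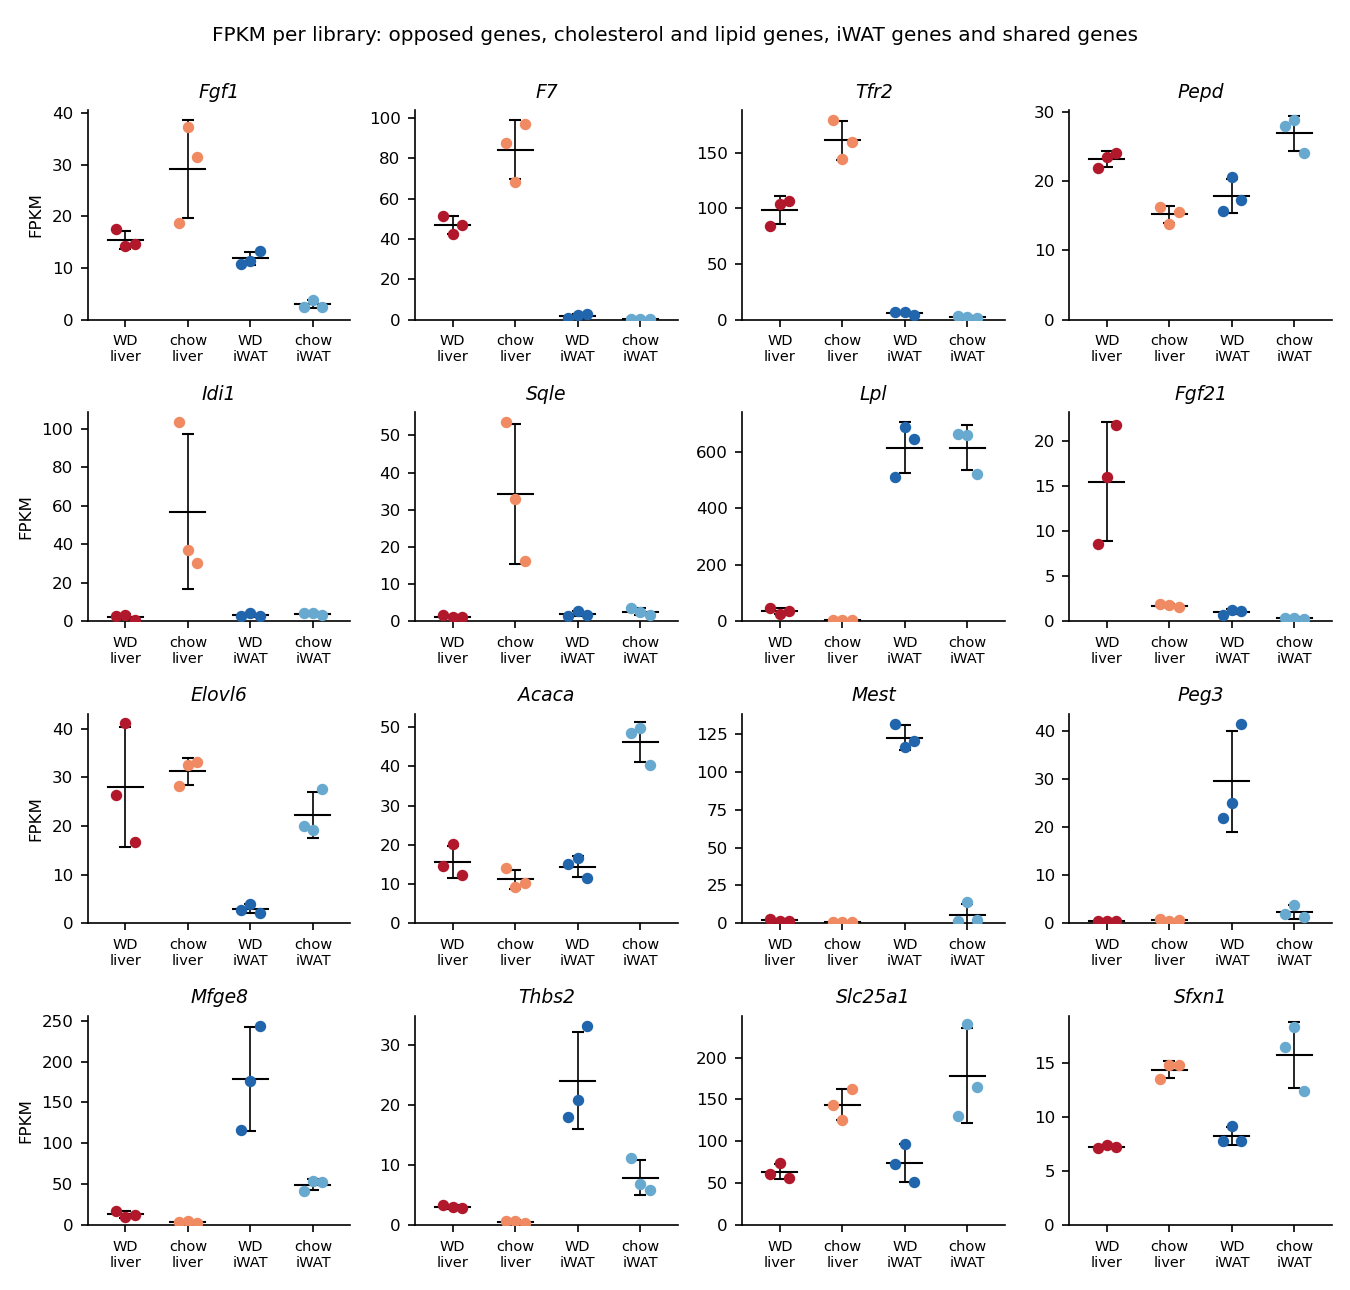
FPKM (y axis) of 16 genes in each of the 12 WT libraries by diet and tissue (x axis), 1 point per library, with the group mean (line) and SD (bars, n = 3). Rows show genes with opposite effects, liver genes of sterol and lipid handling with Fgf21, genes that changed in iWAT, and genes that changed alike in both tissues.

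A smaller set changed in the same direction in liver and fat. Of the 65 genes called in both tissues with 1 sign, 50 rose and 15 fell, and for none of them was the difference called by limma (4 at an unadjusted p under 0.05, 1 by edgeR and 3 by DESeq2). They were chosen for passing in both, so their equal signs are a description. Mfge8 (ENSMUSG00000030605, chr7:79133768-79149060), a secreted bridge between dying cells and phagocytes, had 17.00, 9.53 and 12.3 FPKM in WD liver and 3.92, 4.82 and 3.02 FPKM in chow liver. In iWAT it had 117, 176 and 244 FPKM on WD and 41.9, 53.5 and 53.00 FPKM on chow. Thbs2, a matrix thrombospondin, had 3.41, 2.95 and 2.82 FPKM in WD liver, 0.698, 0.690 and 0.324 in chow liver, 18.1, 20.8 and 33.3 in WD iWAT and 11.2, 6.81 and 5.78 in chow iWAT. The levels in fat were several times those in liver, and the steps were of like size, 1.48 in liver and 1.78 in iWAT for Mfge8 and 1.38 in liver and 1.49 in iWAT for Thbs2 (adjusted p = 0.00876, 0.0112, 0.00817 and 0.0164 in that order, limma).

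Anxa1, annexin A1, a lipid-binding regulator of inflammation, had 12.5, 5.77 and 9.13 FPKM in WD liver, 2.37, 3.09 and 1.80 in chow liver, 110.4, 167 and 188 in WD iWAT and 63.7, 53.3 and 43.2 in chow iWAT, with a difference of 0.02 ± 0.39. Emp1, a membrane protein of epithelia, rose by 2.12 in liver and 1.87 in iWAT, and the tubulin gene Tuba1a by 1.46 in liver and 1.98 in iWAT; 26.2% of the exon bases of Tuba1a are shared with Gm49450, and tubulin genes resemble each other. The SE of the difference was 0.18 to 0.59 log2 in the 10 genes named here, so equal effects were not shown.

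Among the falling genes, Slc25a1 (ENSMUSG00000003528, chr16:17925223-17928219), the mitochondrial citrate carrier that feeds lipid synthesis, had 61.4, 73.6 and 56.2 FPKM in WD liver and 143, 125 and 162 FPKM in chow liver. The iWAT libraries had 73.1, 96.6 and 51.3 FPKM on WD and 129.7, 241 and 164 FPKM on chow. Sfxn1, the mitochondrial serine transporter, had 7.11, 7.40 and 7.19 FPKM in WD liver, 13.5, 14.8 and 14.8 in chow liver, 7.75, 9.16 and 7.78 in WD iWAT and 16.5, 18.3 and 12.4 in chow iWAT. Both had nearly the same level in the tissues on either diet and effects of like size, -1.16 in liver and -1.26 in iWAT for Slc25a1 and -0.90 in liver and -0.85 in iWAT for Sfxn1. Slc43a1, an amino acid transporter, Clcn2, a chloride channel, and H2-Q10, a class Ib MHC protein that liver secretes, completed the 5; their effects were -1.39, -0.95 and -1.05 in liver and -1.23, -0.77 and -1.72 in iWAT. H2-Q10 in iWAT stood at 1.77% of the liver level on WD and at 3.15% on chow. The iWAT calls of the 10 genes ended in 1 of 12 fits without 1 library for Sfxn1, Mfge8 and H2-Q10 and in up to 11 of 12 for Emp1.

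Of the 65 shared genes 8 belonged to a pathway list: Hilpda, Col16a1, Thbs2, Loxl1 and Gusb rose, and Slc25a1, Xbp1 and Rbp4 fell. Hilpda, which blocks lipolysis on lipid droplets, rose by 0.83 in liver and 1.64 in iWAT, and Loxl1, a collagen crosslinker, by 1.52 in liver and 1.08 in iWAT. Rbp4, the retinol carrier that both tissues secrete, had -0.58 in liver and -0.96 in iWAT. The 18 circadian clock genes had medians of -0.44 in liver and -0.56 in iWAT with no call in either tissue by limma (6 and 6 at an unadjusted p under 0.05, 7 and 4 by DESeq2, 0 by edgeR); the labels give no hour of harvest.

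Other lists are described by their calls within a tissue. Over all tested genes 7.64% rose and 6.48% fell in liver, and 1.52% rose and 0.688% fell in iWAT. Of 23 chemokine and inflammation genes 9 rose in liver and Ccl2 and Ccl7, attractants of monocytes, rose in iWAT, with medians of 0.93 in liver and 0.27 in iWAT. Of 25 lysosome genes 6 rose in liver and 1 in iWAT, and of 18 cell cycle genes 3 rose in liver. Of 16 complement and acute phase genes 1 rose in liver, near the share of all tested genes, while in iWAT the plasma proteins Hp and Lbp rose and C3 fell. Among mitochondrial lists, 6 of 24 genes of the mitochondrial ribosome and biogenesis were called lower in liver. So were 4 of 26 of pyruvate entry and the citric acid cycle and 4 of 19 of branched-chain amino acid breakdown. The medians of these lists in liver were -0.34, -0.31 and -0.35. Scaled to total reads, these medians were -0.01, 0.03 and -0.02 in the same order.

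**Figure D5:**
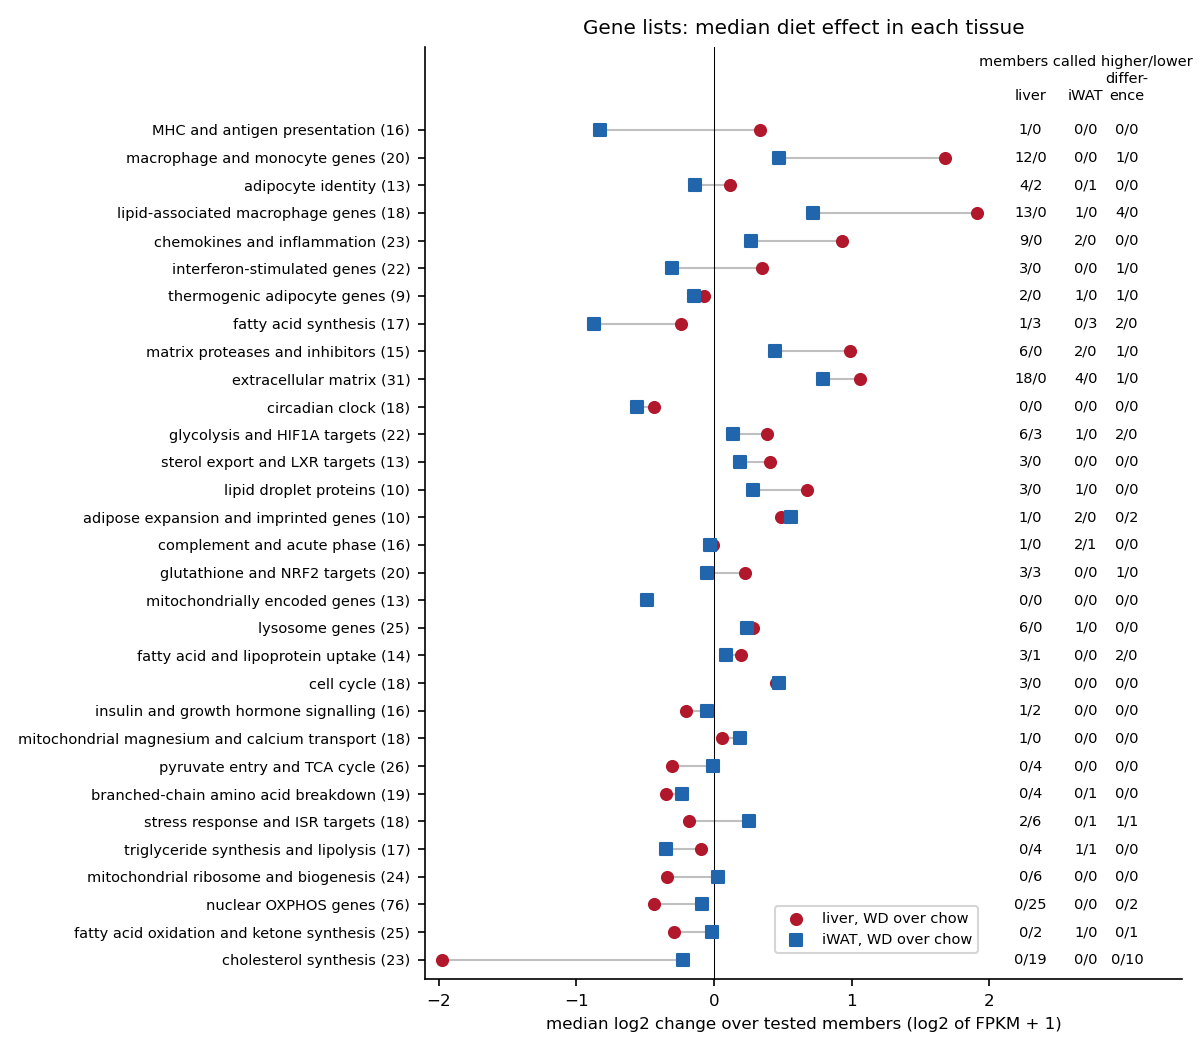
Median diet effect of 31 gene lists (y axis, tested members in brackets) in liver (circles) and iWAT (squares), WD over chow in log2 of FPKM + 1 (x axis), with no error bars, ordered by the median difference; columns at the right give members called higher/lower. Cholesterol synthesis lies far to the left in liver alone, and macrophage lists far to the right in liver.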

How the data were processed

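RNA from whole liver and iWAT was sequenced as paired ends from poly-T bead libraries, per the labels' protocols. HISAT2 2.0.5, DESeq2 1.20.0 and mm10 are named in the submitters' processing notes; the sources used here do not give the counter, the annotation's release or whether counting took strand into account. The main values are the FPKM per gene deposited by the authors. Gene length, deposited by the authors, and read counts per gene, deposited by the authors for some libraries in tables of their comparisons, served as checks. FPKM times gene length, divided by the step of 1 read, gave whole reads for 100% of 540911 values above 0 (tolerance 0.01), and 64434 deposited counts equalled the recovered reads. The FPKM are divided by an effective library size and not by the read total: their ratio averaged 1.02 ± 0.0465 in WD liver, 0.807 ± 0.0430 in chow liver, 1.38 ± 0.0131 in WD iWAT and 1.44 ± 0.140 in chow iWAT (SD, n = 3). Of the tables' value columns, 32 were not used.

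From these values log2(FPKM + 1) was modelled with limma 3.58.1 (trend and robust, R 4.3.3) in 1 fit over the 12 WT libraries, with group as the only term. Genes whose mean FPKM reached 0.5 in both tissues were tested, with Benjamini-Hochberg adjustment over all 12493 and a threshold of 0.05. That mean ran over both diets, so a gene could pass in a tissue through the diet in which it was high. Symbols that had turned into dates, 15 among tested genes, were resolved by identifier. A pseudocount of 1 understates fold changes of low genes. Alternatives were edgeR 4.0.16 (quasi-likelihood) and DESeq2 1.42.0 on the recovered reads, other scalings, pseudocounts, filters, replicate blocks and left-out libraries. The fit was also run on simulated reads with known effects in liver, drawn independently for each library. That run says nothing of shared mice or of RNA from other tissues. Tables were handled in Python 3.11.15 with pandas 2.3.3.

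Named genes had a mean FPKM of at least 3 in 1 group or more. They were the 5 in each direction, by size of the smaller effect, among called differences with opposite signs and no overlap in either tissue; the 5 in each direction by size of the difference among those called in liver and not in iWAT, and likewise in iWAT and not in liver; the 5 in each direction by size of the smaller effect among genes called in both tissues with 1 sign; up to 3 called members per list; and Mrs2. The genes, lists and tests were chosen with earlier results of these data known. Results of some genes on these lists are not reported here, although list counts and medians include them. Other genes were chosen after their values were seen: the remaining genes opposed in both tissues, the further list members named with values, Copg2, and the amino acid enzymes of the closing section.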

Additional observations from a re-analysis of the deposited data

Results flagged for a closer look

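Each of the 42 values here is a difference between the diet effect in liver and that in iWAT, in log2 of FPKM + 1, and each was flagged because limma's test of that difference passed (adjusted p under 0.05, Benjamini-Hochberg over 12493 genes, n = 3 per group). Being picked for their size, they overstate what new samples would show.

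Among genes with opposite effects and liver higher, the difference was 7.26 for Ly6d, 5.10 for Igkj1, 1.79 for Gpx8, 2.25 for Cpxm1 and 2.44 for Igkv1-88. With liver lower it was -2.18 for Jph1, -2.54 for Fgf1, -1.97 for F7, -1.72 for Gamt and -1.58 for Got1. Among genes that rose in liver it was 4.09 for Gpnmb, 3.12 for Lum, 2.93 for Cd63, 2.83 for Sult1e1, 2.73 for Lpl, 1.81 for Cd36, 2.57 for Cd14, 1.16 for Ifit2, 2.29 for Mmp2, 2.54 for Gpx3, 1.89 for Fgf21, 1.37 for Pkm and 1.51 for Hk2. Among genes that fell in liver it was -3.71 for Idi1, -3.55 for Sqle, -2.82 for Msmo1, -2.72 for Cyp51, -2.27 for Tm7sf2, -3.09 for Serpina1e, -0.60 for Shmt2, -0.77 for Atp5o and -0.79 for Ndufs3. Among genes called in iWAT alone it was 3.95 for Igkv6-17, 2.58 for Igkv6-32, 2.32 for Elovl6, 2.07 for Acaca, -3.97 for Mest, -3.37 for Peg3, -2.73 for Arhgef37, -2.65 for Hspb7, -2.61 for Alas2 and -1.51 for Cpt1a.

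In 14 of the 42 the call held whichever 1 of the 12 libraries was left out, and in 28 at least 1 library ended it. Without the 4 libraries that stood apart, the calls of Ly6d, F7, Gpnmb, Sqle and Lpl were the 5 that remained. Every group was smaller in that fit, and the part of lower power in the lost calls was not tested. F7 in iWAT and Gpnmb in liver had reached the filter through the WD group alone.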

How the results depend on the processing

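All 259 differences kept their sign under every alternative that tested them, but how many passed, their balance and medians near 0 moved. Other filters, limma settings and tissue weights, replicate blocks and all 24 libraries leave the group means as they were, so no sign could change there. The 259 were also chosen for large differences in these same data, so kept signs are a weak check. Scaled to total reads, the median liver effect was 0.22 in place of -0.04, the median difference 0.27 in place of -0.04, the liver median of fatty acid synthesis 0.09 in place of -0.24, and 466 differences lay above 0 and 58 below in place of 115 and 144; edgeR gave 206 and 138. Of 31 list medians, 8 in liver, 1 in iWAT and 10 of the difference changed sign under that scaling. In each list the counts are of differences, of liver calls, of iWAT calls, of genes called in both tissues with 1 sign and of genes called with opposite signs (259, 1764, 276, 65 and 7 as reported). DESeq2 gave 1363, 2659, 1045, 280 and 40, and limma over all 24 libraries 889, 2724, 664, 192 and 21. A mean FPKM of at least 5 in both tissues gave 85, 783, 145, 34 and 4. Scaling to total reads gave 524 differences, 2761 liver calls, and 107 and 19 genes called in both with equal and with opposite signs. Without the 4 libraries that stood apart the counts were 19, 705, 150, 35 and 1. With no filter on low values 467 iWAT genes, 27 with 1 sign and 2 with opposite signs were called, and edgeR called 4 with opposite signs. Leaving out 1 library gave 47 to 358 differences, 643 to 2058 liver calls, 68 to 300 iWAT calls, 16 to 87 with 1 sign and 0 to 9 with opposite signs. The fewest differences came without WD liver replicate 3. Differences numbered 71 without WD liver replicate 1, 76 without chow liver replicate 3, 115, 69 and 86 without WD iWAT replicates 1, 2 and 3, and 95, 139 and 168 without chow iWAT replicates 1, 2 and 3. Liver calls numbered 647 and 660 without WD liver replicates 1 and 3 and 643 without chow liver replicate 3. iWAT calls numbered 68 and 76 without WD iWAT replicates 2 and 3 and 111 and 117 without chow iWAT replicates 2 and 3. The cause of these changes was not tested.

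A replicate block by diet and number across tissues gave 133 differences, 78 above 0 and 55 below, of which 97 were among the 259, and 24 of the 42 named differences were called. A replicate block by number within tissue gave 0 differences (limma; 2359 at an unadjusted p under 0.05, smallest adjusted p 0.0503), 598 liver calls, 30 iWAT calls, 2 with 1 sign and 0 with opposite signs. The labels do not say that a number marks a mouse or a day. Deviations of liver and iWAT libraries with the same diet and number correlated at 0.300, 0.487 and 0.335 on WD and at 0.221, 0.0698 and 0.0192 on chow. Not all were over 0.1, so the numbers were not taken as pairs. Yet all lay above 0, and each WD library and chow replicates 1 and 2 correlated best with their own number. If numbers mark mice, the main fit treats tissues of 1 mouse as independent. Depth of 14983623 to 16955729 reads limits genes near 0.5 FPKM; 3 mice per group limit the rest.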

Other observations

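Enzymes of amino acid and creatine metabolism, chosen after their values were seen, included several with a lower mean in WD liver than in chow liver and an iWAT effect near or above 0. Ahcy, which splits S-adenosylhomocysteine, had 255, 325 and 307 FPKM in WD liver, 549.6, 699 and 852 in chow liver, 6.30, 7.01 and 6.16 in WD iWAT and 4.99, 5.12 and 4.75 in chow iWAT, a difference of -1.55 (limma, adjusted p = 0.0116). Asl, the argininosuccinate lyase of the urea cycle, had 56.9, 52.6 and 51.6 FPKM in WD liver, 117, 158 and 143 in chow liver, 3.27, 3.92 and 4.34 in WD iWAT and 3.95, 4.03 and 4.13 in chow iWAT, a difference of -1.29 (adjusted p = 0.00914). Abat, the GABA transaminase, had 30.3, 51.9 and 35.2 FPKM in WD liver, 66.8, 53.8 and 55.1 in chow liver, 7.40, 5.43 and 8.70 in WD iWAT and 1.98, 2.08 and 1.48 in chow iWAT, a difference of -2.11 (adjusted p = 0.0114). In each of the 3 all WD livers lay below all chow livers, and for Ahcy and Abat all WD fat pads lay above all chow ones; the liver effect was called for Ahcy and Asl and the iWAT effect for Abat. Hepatocyte markers were lower in WD liver as well, and their part was not tested. The mitochondrial aspartate aminotransferase Got2 had effects of -0.36 in liver and 0.78 in iWAT, the aspartate-glutamate carrier Slc25a13 -0.80 in liver and 0.46 in iWAT, and Gnmt, the glycine N-methyltransferase, -1.43 in liver and -0.02 in iWAT. Gatm, which begins the creatine synthesis that Gamt completes, rose in liver by 1.01 (adjusted p = 0.00279), with 0.09 in iWAT. The called differences of Got2, Slc25a13, Gnmt and Gatm ended in 7, 7, 9 and 10 of 12 fits without 1 library. Those of Ahcy, Asl and Abat ended in none.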
